A study of Mus musculus with 230 samples.

Results

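Single sensory neurons from the L4 and L5 dorsal root ganglia of mice with a sciatic nerve injury were compared with each other. The cells were chosen by their names in the count table: names starting with L4R form the L4 injured group and names starting with L5R the L5 injured group. A cell was kept when it held at least 50000 endogenous fragment counts outside the feature CT010467.1. This left 18 of 21 cells, 11 of 13 for L4 and 7 of 8 for L5, out of 87 count columns for the whole series. All of them came from C57BL/6 X CAST/Ei mice aged 1 month and were labelled as injured. Intact cells of the same cross and age, whose names start with L4L (10 of 12 kept) or L5L (3 of 6 kept), served as background. The labels do not spell out the parts of a cell's name. L4 and L5 were read as the lumbar ganglia named in the isolation protocol, and the S, M, L or m at the end of most names was left uninterpreted. The labels give neither the animal of a cell, nor the time since surgery, nor whether a picked cell's own axon was cut. Each group therefore counts as 1 sample, cells are not replicates of a ganglion, and no test between the ganglia was made. Cells of 1 ganglion may share an animal, a picking session and a plate, and these cannot be told apart from the ganglion.

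The dorsal root ganglia hold the cell bodies of the neurons that carry touch, position, temperature and pain from the body. The sciatic nerve collects axons from several neighbouring lumbar ganglia. When an axon in the nerve is cut, its cell body is known to switch on a set of genes that is almost silent at rest: transcription factors such as Atf3 and Sox11, neuropeptides such as galanin and neuropeptide Y, and structural genes of axon growth such as Sprr1a. The neurons are also known to fall into types. Large neurofilament-rich neurons serve touch and position, peptidergic nociceptors make Calca (calcitonin gene-related peptide), and non-peptidergic nociceptors carry Mrgprd and the ATP receptor P2rx3.

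Levels are given as CPM, a gene's counts scaled to a total of 1000000 over the endogenous counts outside CT010467.1, with the ERCC spike-ins left out. CT010467.1, on the minus strand of chromosome 17 (39846353 to 39848827 in GRCm38), alone took 29.37% to 71.49% of the endogenous counts of an L4 cell and 25.29% to 89.74% of those of an L5 cell. L4 cells held 79135, 713836 and 6004381 counts outside it (lowest, median and highest) and L5 cells 916351, 2853527 and 8529686. In L4R10S, the shallowest cell, 1 read was worth 12.6 CPM. The summed level of 11 measured neuronal identity genes, among them Tubb3 and Uchl1, ran from 14122 to 32350 CPM in 17 of the 18 cells. None of these genes differed by 4-fold between the ganglia. The remaining cell, L4R8M, stood apart, with 2303 CPM for the same genes, 607 genes detected against 6056 to 14690 in the other L4 cells, 68.29% of its counts on mitochondrially encoded genes and 99.23% of all its counts on spike-ins. It also held Schwann cell transcripts (Prx 4331 and Pmp22 5174 CPM) and Dcn, a fibroblast proteoglycan, at 2320 CPM. It is kept below because the depth rule keeps it. A second cell, L5R2L, had 89.74% of its endogenous counts on CT010467.1 and 6526 genes detected, against 11125 to 14089 in the other L5 cells. L4R15M had 6056 genes detected, the fewest in L4 after L4R8M. It also had 93.05% of all its counts on spike-ins, where the L4 median was 18.92%. L4R15M is kept as well, and it is among the cells with high injury gene levels below. Immune markers summed to at most 25.8 CPM in any kept injured cell, and 17 of the 18 cells held reads from Y-linked genes and none from Xist.

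Injury genes were higher in L4 than in L5. Of 36 measured genes in 3 injury lists, 32 reached a pooled level of 10 CPM in at least 1 group. Of these, 19 were at least 4-fold higher in L4 and 0 in L5. A gene could pass the filter through 1 group alone. Of the 19, the 8 secreted factors and Crem, Sprr1a, Stmn4, Ecel1, Tubb6 and Lmo7 passed through L4 alone. Such genes could only be called toward L4. Across all 9294 features that passed the same level filter, 537 (5.78%) were at least 4-fold higher in L4 and 546 (5.87%) at least 4-fold higher in L5, so 49.58% of these calls were toward L4. Scaling by the spike-ins moved that share to 69.3% and the median log2 ratio of all features to 0.41, and leaving CT010467.1 in the total moved them to 62.04% and 0.21. The median log2 ratio of L4 over L5, with a pseudocount of 1 CPM, was 1.42 for the injury transcription factors and signalling genes, 5.81 for the secreted factors and 2.76 for the growth and structural genes, beside -0.10 for all features. Fewer of these genes passed the filter in the intact cells (11, 3 and 9, against 12, 9 and 11), where the medians were -0.17, 3.01 and 0.50. There 2 of the 3 secreted factors (Gal and Adcyap1) were 4-fold higher in L4, with their highest levels in 1 cell, L4L17S. There, 395 of 9601 features (4.11%) were 4-fold higher in L4 and 336 (3.5%) in L5. The pooled level sums the counts of a group before scaling, so deep cells weigh more: the 4 deepest cells gave 85.85% of the L4 counts and 78% of the L5 counts.

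**Figure D1:**
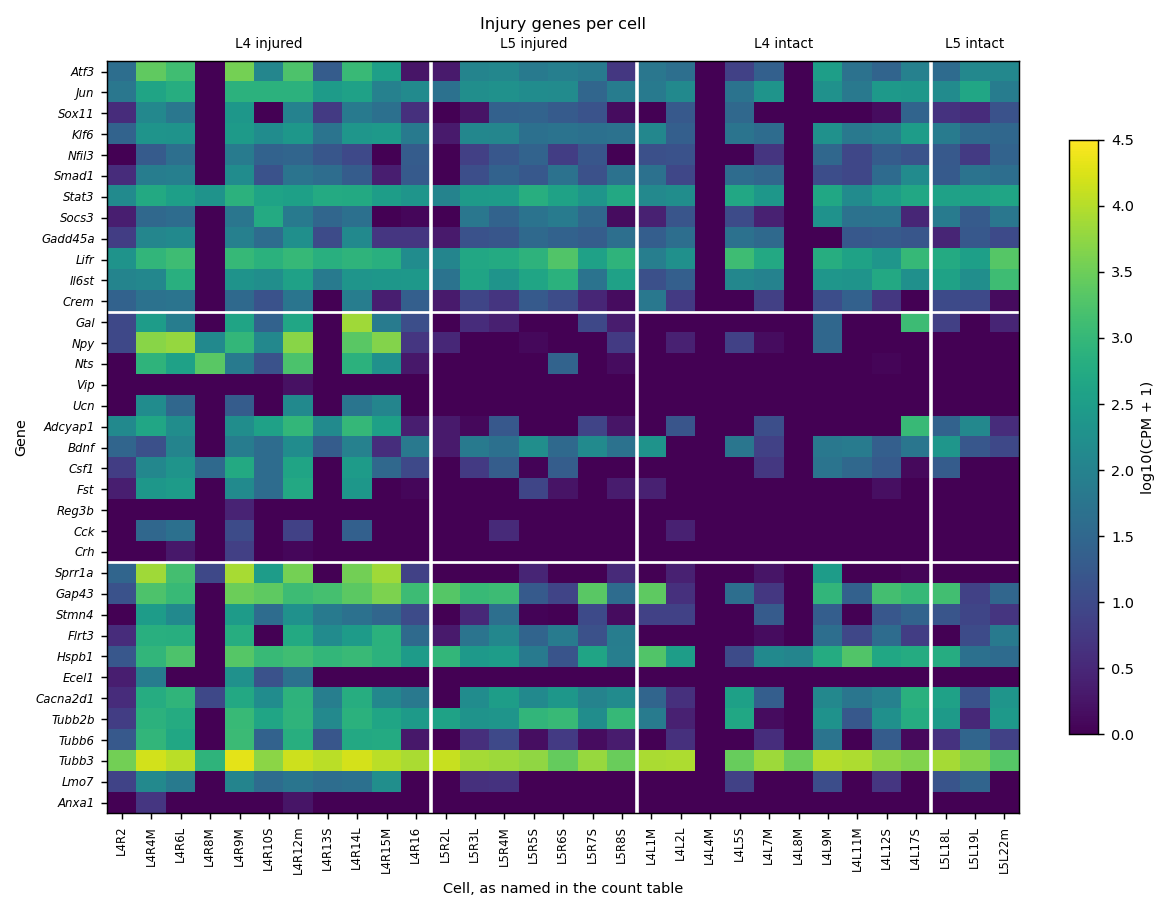
Levels of 36 injury genes (rows) as log10(CPM + 1) in each of the 18 injured and 13 intact cells (columns), with white lines between the groups and between the transcription factor, secreted factor and growth gene lists. Columns L4R4M, L4R6L, L4R9M, L4R12m, L4R14L and L4R15M are bright for Npy, Nts, Adcyap1 and Sprr1a, while the L5 injured columns are dark for these genes (Bdnf, in the same list, is bright in both ganglia).

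The high L4 values came from some of the 11 cells. Counting the members at or above 20 CPM, L4R6L and L4R12m held 31 of the 36 injury genes, L4R4M and L4R9M 30, L4R14L 29 and L4R15M 23. L4R10S held 24, L4R13S 16, L4R16 13, L4R2 11 and L4R8M 5. The L5 cells held 8 to 18, and the intact cells 0 to 21. As a stricter reading, 31 of the 36 genes exceeded the highest of the 13 intact cells in some L4 cell and 8 did so in some L5 cell. The same count per cell was 25 in L4R9M, 22 in L4R12m, 19 each in L4R4M, L4R6L and L4R14L, and 12 in L4R15M. It was 9 in L4R10S, 5 in L4R13S, 2 in L4R8M and 1 each in L4R2 and L4R16. In L5 it was 0 to 4. By these counts L4R2 and L4R16, both from L4, lay among the L5 cells, and neither was shallow, at 713836 and 5059069 counts.

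Sequences just before the start of transcription were searched for the injury genes past 4-fold in L4 and the 12 named features per direction. Not all of these were found in the RefSeq table, and other genes named here were not looked up. Sequences are shown for those that carry an AP-1 or a CRE motif, the binding letters usually assigned to Jun and Atf family factors. They were taken from RefSeq (GRCm38.p6), 250 bases each, on the gene's own strand, 5′ to 3′, with the motif in capitals. The AP-1 motif was searched as TGACTCA and TGAGTCA, which are each other's reverse complement, and the CRE motif as TGACGTCA, which reads the same on both strands. Sprr1a (chr3:92485882-92486131, minus strand), Nts (chr10:102490419-102490668, minus strand) and Ucn (chr5:31138896-31139145, minus strand) were higher in L4, and F2rl2 (chr13:95696670-95696919, plus strand) and Pnpla3 (chr15:84167566-84167815, plus strand) in L5.
Sprr1a: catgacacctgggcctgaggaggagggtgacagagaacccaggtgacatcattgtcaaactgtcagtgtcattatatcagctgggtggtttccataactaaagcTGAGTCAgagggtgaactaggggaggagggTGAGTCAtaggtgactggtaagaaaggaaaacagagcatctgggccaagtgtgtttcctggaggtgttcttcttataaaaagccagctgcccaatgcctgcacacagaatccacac
Nts: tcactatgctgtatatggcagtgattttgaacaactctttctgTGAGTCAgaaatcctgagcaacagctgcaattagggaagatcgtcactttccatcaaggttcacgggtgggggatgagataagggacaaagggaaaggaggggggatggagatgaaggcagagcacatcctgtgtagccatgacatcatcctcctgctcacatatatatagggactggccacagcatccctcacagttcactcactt
Ucn: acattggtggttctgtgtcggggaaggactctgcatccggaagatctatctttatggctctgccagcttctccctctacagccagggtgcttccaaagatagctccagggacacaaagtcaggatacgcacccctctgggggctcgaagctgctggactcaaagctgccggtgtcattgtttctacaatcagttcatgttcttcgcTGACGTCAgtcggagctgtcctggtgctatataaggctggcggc
F2rl2: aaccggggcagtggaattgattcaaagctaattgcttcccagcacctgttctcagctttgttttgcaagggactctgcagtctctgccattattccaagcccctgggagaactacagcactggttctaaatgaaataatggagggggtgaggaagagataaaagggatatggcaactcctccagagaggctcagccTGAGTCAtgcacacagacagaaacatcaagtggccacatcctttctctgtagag
Pnpla3: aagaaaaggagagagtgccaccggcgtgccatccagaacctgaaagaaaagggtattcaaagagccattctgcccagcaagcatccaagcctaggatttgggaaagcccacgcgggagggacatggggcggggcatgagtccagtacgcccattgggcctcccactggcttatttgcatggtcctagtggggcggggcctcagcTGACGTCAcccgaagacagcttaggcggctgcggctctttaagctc
Sprr1a held 2 AP-1 motifs, starting 146 and 116 bases before the start of transcription, and Nts held 1, at 207 bases. F2rl2 held 1 at 54 bases. The CRE motif started 44 bases before the start in Ucn and 46 bases before it in Pnpla3. Of the 19 injury genes past 4-fold, 15 were found in the RefSeq table, with 17 promoters, of which 2 held the AP-1 motif and 1 the CRE motif. Among all 32851 promoters of the table, 4.46% held the AP-1 motif and 1.55% the CRE motif in the same 250 bases. The Atf3 window searched (chr1:191183334-191183583, minus strand) held neither as exact letters, and no other start of that gene was searched. These are matches of letters and say nothing about binding in these cells.

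Among the transcription factors, Atf3 (GRCm38, chromosome 1, 191170296 to 191218039), an early marker of an injured sensory neuron, had 3634 CPM in L4R9M, 2549 in L4R4M, 1781 in L4R12m, 1296 in L4R6L and 1131 in L4R14L. L4R15M had 352, L4R10S 114, L4R2 42.0, L4R13S 19.6, L4R16 0.791 and L4R8M 0. The L5 cells had 1.09, 106, 120, 71.9, 87.3, 67.7 and 4.39 CPM, in the order L5R2L to L5R8S. Every L5 cell thus lay below the 6 highest L4 cells and inside the range of the intact cells, which ran from 0 to 335 CPM. The pooled levels were 1569 CPM (95% Poisson interval 1554 to 1585) in L4 and 79.1 CPM (75.8 to 82.6) in L5, a log2 ratio of 4.31. The log2 ratio stayed between 3.62 and 4.63 when any 1 cell was left out, and it was 3.62 without L4R9M. These intervals and all others here cover counting error only, since PCR copies are not independent molecules, and they do not cover the spread between cells.

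Sox11, a developmental transcription factor of neurite growth, had 0, 45.04 and 236 CPM in L4 (lowest, median and highest) and 0, 13.3 and 26.0 in L5. L4R9M, L4R4M, L4R12m, L4R14L, L4R6L and L4R15M lay above every L5 cell, and the other 5 L4 cells overlapped with L5. Its pooled log2 ratio was 2.55, or 1.77 without L4R9M, which is below 4-fold. Crem, a cyclic AMP-responsive factor, had a pooled log2 ratio of 2.34, or 3.23 without L5R5S and 1.97 without L4R14L, which is below 4-fold. Gadd45a, a stress and growth arrest gene, had one of 2.01, just past 4-fold. Jun, the AP-1 subunit, missed 4-fold with a log2 ratio of 1.81: it had 60.2 to 771 CPM in the 10 L4 cells other than L4R8M and 29.9 to 189 CPM in L5. Stat3, Lifr and Il6st of the gp130 cytokine pathway, together with Klf6, Smad1, Nfil3 and Socs3, were not past 4-fold either. Socs3, the feedback inhibitor of that pathway, had pooled levels of 42.0 CPM in L4 and 41.5 in L5, and its highest value, 556 CPM, was in L4R10S.

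**Figure D2:**
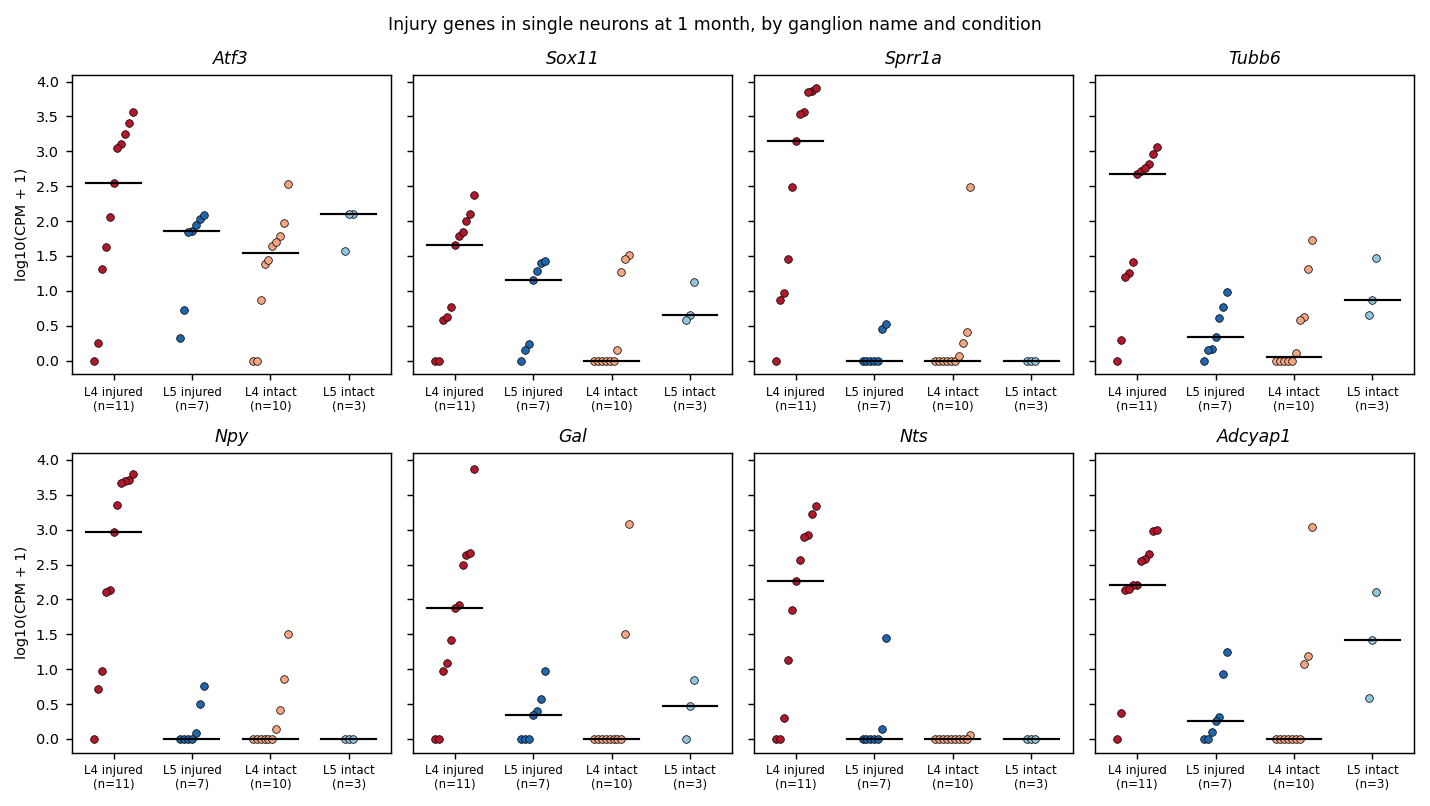
Level of 8 injury genes as log10(CPM + 1) in every kept cell of the 4 groups, 1 point per cell, drawn in order of value, with a black line at the group median. For Sprr1a and Npy the L4 injured cells spread from 0 to 8059 and to 6234 CPM, while no L5 injured cell passes 4.79 CPM.

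The secreted factors showed the widest gap. Of 12 measured, 9 passed the level filter and 8 of them were at least 4-fold higher in L4. The exception was Bdnf, a neurotrophin, with medians of 37.9 CPM in L4 and 49.5 in L5. The 8 genes passed the filter through L4 alone, with less than 10 CPM pooled in L5, whereas Bdnf passed in both ganglia. The filter itself thus favoured genes high in L4. Without a level filter, 9 of the 12 were at least 4-fold higher in L4 and 0 in L5. Npy (neuropeptide Y, GRCm38, chromosome 6, 49822710 to 49829507) had 6234 CPM in L4R6L, 5081 in L4R4M, 5004 in L4R12m, 4662 in L4R15M, 2270 in L4R14L and 937 in L4R9M. It had 134 in L4R8M, 126 in L4R10S, 8.40 in L4R2, 4.15 in L4R16 and 0 in L4R13S. The L5 cells had 2.18, 0, 0, 0.234, 0, 0 and 4.79 CPM, and the highest intact cell had 31.4. At least 20 CPM was reached in 8 of 11 L4 cells (72.7%, exact binomial interval 39.0% to 94.0%) and in 0 of 7 L5 cells, which allows a share of up to 42.9%. The pooled log2 ratio was 11.87, and 13.72 without L5R8S.

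Nts (neurotensin, chromosome 10) had 1675 CPM in L4R12m, 845 in L4R4M, 775 in L4R14L, 370 in L4R6L, 184 in L4R15M and 68.7 in L4R9M. Its highest value, 2211 CPM, was in L4R8M, the cell rich in mitochondrial and Schwann cell transcripts, and the part of those transcripts in this value was not tested. In L5 only L5R6S (26.6 CPM) and L5R8S (0.399) held reads, and among the 13 intact cells the highest value was 0.136. The pooled log2 ratio was 7.64, rising to 13.75 without L5R6S and falling to 6.77 without L4R12m. Ucn (urocortin, a corticotropin-releasing factor relative) had 150 CPM in L4R4M, 134 in L4R12m, 110 in L4R15M, 54.3 in L4R14L, 31.0 in L4R6L and 19.2 in L4R9M. It had no reads in the other 5 L4 cells, in any L5 cell or in any intact cell. Against a floor of 3 counts over the 7 L5 cells, its pooled level was at least 458-fold higher in L4. Without L4R12m the log2 ratio over that floor fell from 8.84 to 8.15.

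Gal (galanin) was uneven within L4: 7323 CPM in L4R14L, 464 in L4R12m, 428 in L4R9M, 306 in L4R4M, 81.3 in L4R6L and 73.2 in L4R15M, and at most 25.3 in the other 5. The L5 cells had at most 8.31 CPM. The pooled log2 ratio of Gal, 10.26, fell to 7.39 without L4R14L and was 11.06 without L5R7S. Adcyap1, which encodes the peptide PACAP, was the most widespread of the list in L4, with 134 to 988 CPM in 9 of 11 cells, 1.38 in L4R16 and 0 in L4R8M, against 0 to 16.4 CPM in L5. Its pooled log2 ratio was 6.90, and 8.89 without L5R4M. L4R2 and L4R13S, which had little Sprr1a, still held 134 and 142 CPM of it. In the intact cells 1 cell, L4L17S, held both Gal (1197 CPM) and Adcyap1 (1095 CPM), so these peptides were not confined to injured cells.

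Csf1, the microglial growth factor, had 543, 419, 294, 214 and 120 CPM in L4R9M, L4R12m, L4R14L, L4R6L and L4R4M, and 0 to 20.6 CPM in L5. Fst (follistatin, an activin antagonist) had 514, 292, 244, 240 and 139 CPM in L4R12m, L4R6L, L4R14L, L4R4M and L4R9M but 0 in L4R15M, and 0 to 7.86 CPM in L5. Cck (cholecystokinin) was low, with 44.5 CPM at most in L4 and 2.45 in L5. Vip, Reg3b and Crh, other peptides tied to injury, did not reach a pooled 10 CPM in either ganglion.

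Of the growth and structural genes, 7 of 11 that passed the filter were at least 4-fold higher in L4. Sprr1a, Tubb6, Stmn4, Ecel1 and Lmo7 passed through L4 alone. Without a level filter, 7 of 12 were at least 4-fold higher in L4 and 0 in L5. Sprr1a (small proline-rich protein, GRCm38, chromosome 3, 92483952 to 92485895) had the highest ratio of the 12 named L4 features. It had 8059 CPM in L4R9M, 7282 in L4R4M, 7124 in L4R15M, 3610 in L4R12m, 3444 in L4R14L and 1425 in L4R6L. L4R10S had 303 CPM, L4R2 28.0, L4R8M 8.35, L4R16 6.33 and L4R13S 0. In L5, L5R5S had 1.88 CPM, L5R8S 2.40 and the other 5 cells 0. Among the intact cells, L4L9M had 304 CPM, close to L4R10S, and the others at most 1.58. The pooled levels were 3801 CPM (3777 to 3825) in L4 and 0.831 CPM (0.521 to 1.26) in L5, a log2 ratio of 12.16, or 13.47 without L5R5S. Per kilobase of exon, the pooled level of Sprr1a in L4 was 4716 CPM, above Npy (3988), Gal (2736) and Atf3 (728) and below the neuronal tubulin Tubb3 (7686).

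Tubb6, a tubulin of growing axons, had 1172, 919, 668, 572, 522 and 473 CPM in the same 6 cells that were highest for Sprr1a, 0 to 25.3 CPM in the other 5 L4 cells and 0 to 8.68 CPM in L5. Its pooled log2 ratio was 7.58, and 8.50 without L5R4M. Flrt3, an adhesion protein of neurite growth, had 297 to 746 CPM in those 6 cells, 147 in L4R13S and at most 35.2 in the other 4, against 1.09 to 118 CPM in L5, with a log2 ratio of 2.78. Hspb1, a small heat shock protein, overlapped more, with 295 to 2037 CPM in 9 L4 cells and 14.02 to 945 in L5, and a log2 ratio of 2.52. Ecel1, a neuronal endopeptidase, was read at 20 CPM or more in 3 L4 cells (186 in L4R9M, 78.0 in L4R4M and 46.1 in L4R12m) and had no reads in L5 or in intact cells. Without L4R9M its log2 ratio over the 3-count floor fell from 8.87 to 6.999.

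The best known growth gene, Gap43, did not follow Sprr1a. It had 1096 to 4062 CPM in 9 L4 cells, among them L4R16 (1237) and L4R13S (1495), and 12.6 and 0 CPM in L4R2 and L4R8M. In L5 it had 2236, 2018, 1220 and 1057 CPM in L5R7S, L5R2L, L5R4M and L5R3L but 7.36 to 38.7 in L5R5S, L5R6S and L5R8S. Its pooled log2 ratio was 1.52, under 4-fold. In intact cells it reached 2380 CPM. Tubb2b ran the other way within L5: 932, 1093 and 1019 CPM in L5R5S, L5R6S and L5R8S and 161 to 391 in the other 4. Over both ganglia Tubb2b was near even, with a log2 ratio of 0.19.

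The cells of the 2 ganglia also differed in genes that mark neuron types. Type was read from these levels alone, and whether injury changed them was not tested. All 7 L5 cells held Calca, at 8289, 24877, 12806, 3738, 1481, 15319 and 992 CPM. In L4, Calca was at 26824 CPM in L4R16, 6286 in L4R13S, 5320 in L4R10S and 1694 in L4R8M, and at 0 to 269 in the other 7. Of the L5 cells, the 3 with the least Calca, L5R5S, L5R6S and L5R8S, also carried the non-peptidergic genes. Mrgprd, the itch and pain receptor of these neurons, was at 2454, 2716 and 1272 CPM there, at most 2.08 in the other L5 cells and at most 25.3 in L4. Lpar3, a lysophospholipid receptor, was at 414, 639 and 784 CPM in the same 3 cells and had no reads in any L4 cell.

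Of the 8 non-peptidergic genes that passed the filter, 6 were at least 4-fold higher in L5, with a list median log2 ratio of -4.96. Some of the 6, among them Mrgprd, Lpar3 and Agtr1a, passed through L5 alone and could only be called toward L5. Without a level filter, 6 of 10 were past 4-fold in L5 and 2 in L4. Without the cells named S, 4 passed the filter, 1 of them past 4-fold in L5 and 2 in L4. In the intact cells 8 genes of the list passed, with Osmr in place of Il31ra, and all 8 were at least 4-fold higher in L5. Mrgprd was at 1641 CPM there in L5L22m, 1 of the 3 kept L5 cells. The intact L4 cell L4L5S also carried these genes, with 1317 CPM of Mrgprd, 431 of P2rx3 and 500.3 of Gfra2, but its 315783 counts weigh little in the pooled L4 level. Of the 9 peptidergic genes that passed, 4 (Tac1, Trpv1, Kit and Trpm8, which passed through L5 alone) were past 4-fold in L5. Without L4R16 all 9 were, and with each cell weighted equally 1 gene was past 4-fold in each direction, with Kit at -1.59 and Trpm8 at -1.21. Without L5R5S the pooled log2 ratio of Tac1 fell from -5.57 to -2.36, and that of Trpv1 from -3.48 to -0.22. Tac1 had 787 CPM in L5R5S but 1693 in L4R10S, and with each cell weighted equally its log2 ratio was 0.12 and that of Trpv1 1.58, both toward L4. Calca itself was not past 4-fold, with a pooled log2 ratio of -0.78, and without L4R16 that ratio was -6.38. Of 12 neurofilament-rich genes, 5 (Pvalb, Ntrk2, Ntrk3, Spp1 and Calb1) were past 4-fold in L4. The neurofilament genes Nefh, Nefm and Nefl themselves were not, with log2 ratios of 0.79, 1.28 and 0.43. Nor were Ldhb (1.27), Scn1a (0.995), Cntnap2 (-0.22) and Vsnl1 (-0.67). Pvalb, Ntrk2, Spp1 and Calb1 passed the filter through L4 alone. Over all features that passed, 5.78% were at least 4-fold higher in L4 and 5.87% in L5. In cells named M or m alone, 11 genes of the list passed the filter, 3 of them past 4-fold in L4 and 1 in L5. Pvalb, the marker of position-sensing neurons, was at 1752 CPM in L4R2 and at most 53.9 in any other injured cell, and without L4R2 its log2 ratio was -0.72. That of Ntrk3 fell from 2.47 to 1.47 without L4R9M, below 4-fold. Ntrk2, the BDNF receptor, was at 230, 215 and 189 CPM in L4R6L, L4R14L and L4R12m, and Ntrk3, the neurotrophin-3 receptor, at 535, 341, 245 and 236 CPM in L4R2, L4R9M, L4R4M and L4R15M.

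**Figure D3:**
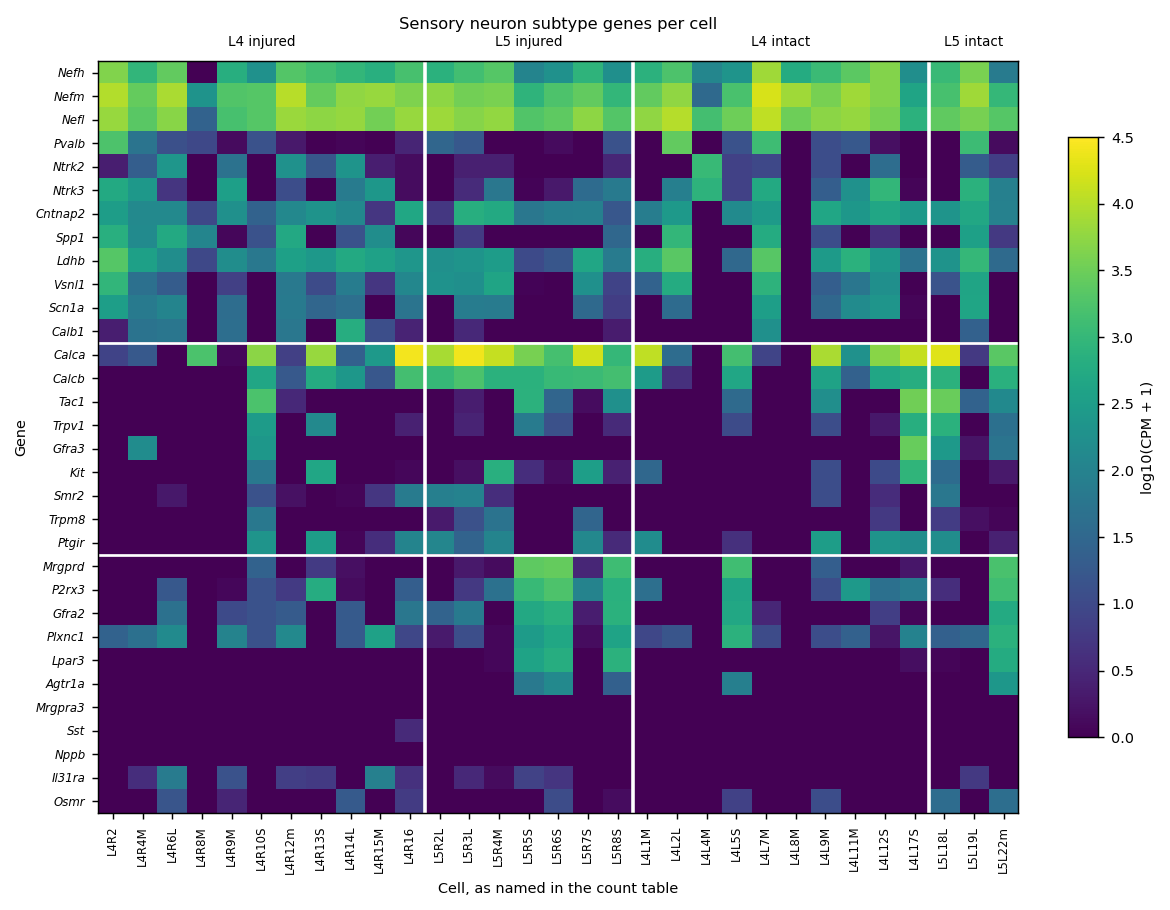
Levels of selected neurofilament-rich, peptidergic and non-peptidergic genes (rows, from top to bottom, separated by white lines) as log10(CPM + 1) in each kept cell (columns). Mrgprd, P2rx3 and Lpar3 are bright in L5R5S, L5R6S and L5R8S, and Calca is bright in all L5 injured columns but reaches 1694 CPM or more in only 4 of the 11 L4 injured columns.

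Type genes and injury genes moved together across the cells. All 6 L4 cells with 1425 CPM or more of Sprr1a had 269 CPM of Calca or less. The L4 cells rich in Calca had 303 (L4R10S), 0 (L4R13S), 6.33 (L4R16) and 8.35 CPM (L4R8M) of Sprr1a. L4R2, rich in Pvalb, had neither, with 28.0 CPM of Sprr1a and 7.004 of Calca. No L5 cell had less than 992 CPM of Calca, so no L5 cell had as little Calca as the 6 Sprr1a-rich L4 cells. The ganglion, the type of the picked neurons and a change of type genes with injury cannot be told apart. The 2 ganglia can be set side by side within the Calca-rich cells. There L4R16 and L5R3L had 0.791 and 106 CPM of Atf3, 6.33 and 0 of Sprr1a, 4.15 and 0 of Npy, and 1237 and 1057 of Gap43. L4R10S, also rich in Calca, differed from every L5 cell, with 126 CPM of Npy, 379 of Adcyap1 and 303 of Sprr1a, against at most 4.79, 16.4 and 2.40 in L5. L4R13S had 142 CPM of Adcyap1 but none of Npy or Sprr1a. Over all cells of the 2 groups, L4R16 and L5R3L had the highest correlation of log2 levels across genes of any pair from different ganglia (r = 0.90), while the highest of all was L4R6L with L4R12m (r = 0.91). The most similar cell was in the same ganglion for 8 of 11 L4 cells and 5 of 7 L5 cells. The exceptions were L4R10S, L4R13S and L4R16, each closest to L5R3L, and L5R2L and L5R3L, each closest to L4R16. These correlations are across genes in 1 pair of cells and describe likeness only.

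**Figure D4:**
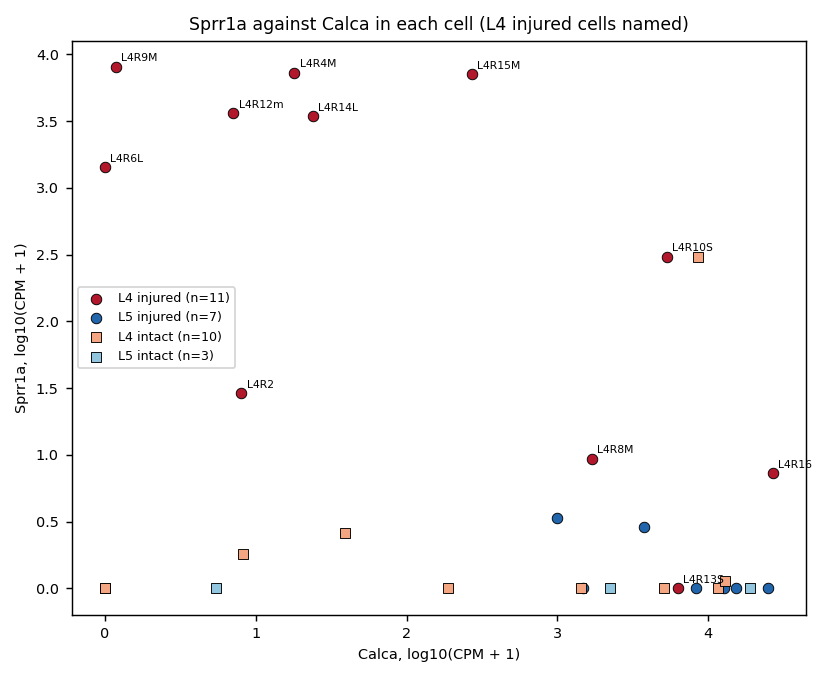
Sprr1a against Calca, both as log10(CPM + 1), 1 point per kept cell, with circles for injured and squares for intact cells and the L4 injured cells named. The 6 L4 cells at 1425 CPM or more of Sprr1a lie at the top left, at 0 to 269 CPM of Calca, and all 7 L5 injured cells lie on the right near the bottom.

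The letter at the end of the names was also uneven: L4 had 2 cells named S, 5 named M or m, 2 named L and 2 with no letter, and L5 had 4, 1, 2 and 0. Among the cells named L, L4R6L and L4R14L had 1296 and 1131 CPM of Atf3, and L5R2L and L5R3L 1.09 and 106. The same pairs had 6234 and 2270 CPM of Npy against 2.18 and 0. Among the cells named S, L4R10S and L4R13S had 114 and 19.6 CPM of Atf3, and the 4 L5 cells 4.39 to 87.3. Cells with the same letter still differed in type genes, since the L5 cells named L were rich in Calca and the L4 cells named L were not.

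Sodium channel genes went with the type genes. Scn10a (Nav1.8), the channel of pain neurons, was at 50.2 CPM in L5R2L and 620 to 2524 in the other 6 L5 cells, and in L4 at 1206 in L4R16, 912 in L4R13S, 253 in L4R10S and at most 8.45 elsewhere. Its pooled log2 ratio of -2.89 became -7.31 without L4R16. P2rx3 was at 1095, 1729 and 708 CPM in the 3 Mrgprd-rich L5 cells, at most 101 in the other 4 and at 613 CPM in L4R13S. Scn11a (Nav1.9, GRCm38, chromosome 9, 119753759 to 119825456) was at 1090, 1162 and 592 CPM in the 3 Mrgprd-rich L5 cells, 148 in L5R4M and 48.2 in L5R7S. In L4 it was at 118 CPM in L4R13S and at most 3.16 elsewhere, with a log2 ratio of -8.41, or -9.62 without L4R13S and -7.58 without L5R5S. With the auxiliary subunits Scn2b and Scn3b, 4 of the 10 sodium channel genes that passed the filter were at least 4-fold higher in L5 and 0 in L4. Over all features that passed, the shares were 5.87% and 5.78%. Scn11a and Scn3b passed through L5 alone. Scn2b was at the limit, with a log2 ratio of -2.03 that was -1.11 without L5R4M, and with TMM scaling 3 genes of the list passed. With each cell weighted equally only Scn10a and Scn11a passed, 2 genes.

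Requiring in addition that the share of cells at or above 20 CPM differ by at least 50 percentage points left 79 features higher in L4 (0.85% of those read) and 74 higher in L5 (0.796%). In the intact cells, 64 of the 79 were read and 5 were 4-fold higher in L4 and 5 in L5, with a median log2 ratio of -0.25 against 4.11 in the injured cells. Of the 74, 72 were read in intact cells, where 9 were 4-fold higher in L5 and 1 in L4, with a median of -0.37 against -2.85. Both lists were chosen on the injured values, which are given as a description. The L5L cells that enter the intact comparison number 3, 1 of them rich in Mrgprd.

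The 12 named L4 features with the highest ratio held 3 genes already described (Sprr1a, Npy and Gal). Rasgrf2, a Ras exchange factor, was at 976, 692, 623, 383, 352 and 296 CPM in the 6 Sprr1a-rich cells, 74.2 in L4R2 and at most 25.3 in the others. It had 3 reads in all in L5, a pooled ratio of 3606 (counting interval 1234 to 17490). Car3, a carbonic anhydrase, was at 1643 CPM in L4R9M and 411 to 777 in the other 5 of those cells, at most 63.2 in the rest of L4 and at most 2.27 in L5. Ndrg2, a stress-responsive gene, was at 1278, 1212, 615, 540, 524 and 282 CPM in the 6 cells and at most 1.89 in L5. Pde1a, a calcium-activated phosphodiesterase, reached 364 CPM in L4R15M and had no reads in any L5 or intact cell, so its pooled level was at least 604-fold higher in L4. Its log2 ratio over the floor fell from 9.24 to 8.64 without L4R9M. Rnd1, a small GTPase, reached 236 CPM in L4R15M and had no reads in L5, at least 432-fold. Cbln2, a synaptic organiser, was at 129 to 821 CPM in the 6 cells and at most 3.99 in L5, but at 690 CPM in the intact cell L5L19L. Shox2, a transcription factor of touch neurons, was at 122 CPM in L4R2 and 68.2 to 112 in 5 of the 6 cells. It had no reads in L5 and reached 463 CPM in intact cells. Akain1 and Sez6l completed the list, with highest values of 75.8 and 226 CPM in L4 and 0.117 and 1.60 in L5. In intact cells Ndrg2 reached 251 CPM (L4L17S), Sez6l 134 (L5L19L), Rasgrf2 56.8 (L4L11M) and Akain1 41.1 (L4L2L). Car3 and Rnd1 reached 31.45 and 15.8 CPM there.

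Among the 12 named L5 features, Trpa1 (GRCm38, chromosome 1, 14872648 to 14918862), the irritant-sensing channel, was at 237, 123 and 106 CPM in L5R6S, L5R8S and L5R5S, 26.4 in L5R4M, 6.23 in L5R7S and 0 in the other 2 L5 cells. It had no reads in any of the 11 L4 cells, so its pooled level was at least 649-fold higher in L5. Intact cells reached 224 CPM. Prkcd, a protein kinase C, was at 1.09 CPM in L5R2L and 108 to 1646 in the other 6 L5 cells, and in L4 at 973, 294 and 83.4 CPM in L4R10S, L4R13S and L4R16 and at most 16.1 elsewhere. F2rl2, a protease-activated receptor, was at 13.1 to 406 CPM in L5, and in L4 at 309 in L4R13S, 63.2 in L4R10S and at most 13.4 elsewhere. Rgs3, a regulator of G protein signalling, was at 31.6 to 288 CPM in every L5 cell, and in L4 at 139 in L4R10S, 39.2 in L4R13S and at most 7.74 elsewhere. Klhl5 and Cd82 were highest in the 3 Mrgprd-rich cells, at 480 to 574 and 135 to 228 CPM. Pnpla3, Cxxc4 and Ccdc141 reached 48.0, 61.9 and 219 CPM in L5.

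Hox genes, which mark position along the body axis, gave a different split. Hoxd10 (GRCm38, chromosome 2, 74691924 to 74695105) was at 40.4, 47.1, 16.97, 43.0, 0, 46.5 and 21.96 CPM in L5R2L to L5R8S. In L4 it was at 12.6 CPM in L4R10S, which is 1 read, 1.42 in L4R4M, 0.204 in L4R12m and 0 in the other 8 cells. Its neighbour Hoxd11 was at 6.55 to 20.3 CPM in the same 6 L5 cells, 0 in L5R6S and 0.204 in 1 L4 cell. With 3 and 1 reads in all of L4, the pooled ratios of L5 over L4 were 269 (counting interval 91.7 to 1307) and 324 (57.7 to 12816). Hoxb7 ran the other way: 9.81 to 24.5 CPM in 6 L4 cells, 2.37 in L4R16 and 0 in the other 4, but 1 read in all 7 L5 cells, a ratio of 416 (74.3 to 16478). Hoxa9, by contrast, was at 26.3 to 105 CPM in every L5 cell and 41.4 to 139 in 9 of 11 L4 cells. The intact L5 cells did not share the pattern of the injured L5 cells. All 3 had 0 CPM of Hoxd10 and Hoxd11, and 24.5, 11.6 and 13.1 CPM of Hoxb7. The cells named L5R and L5L thus differed in Hox genes, and the injured and intact cells cannot be taken as matched for position. Counting ignored strand, so reads of antisense transcripts in the Hox clusters cannot be told apart from those of the genes.

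**Figure D5:**
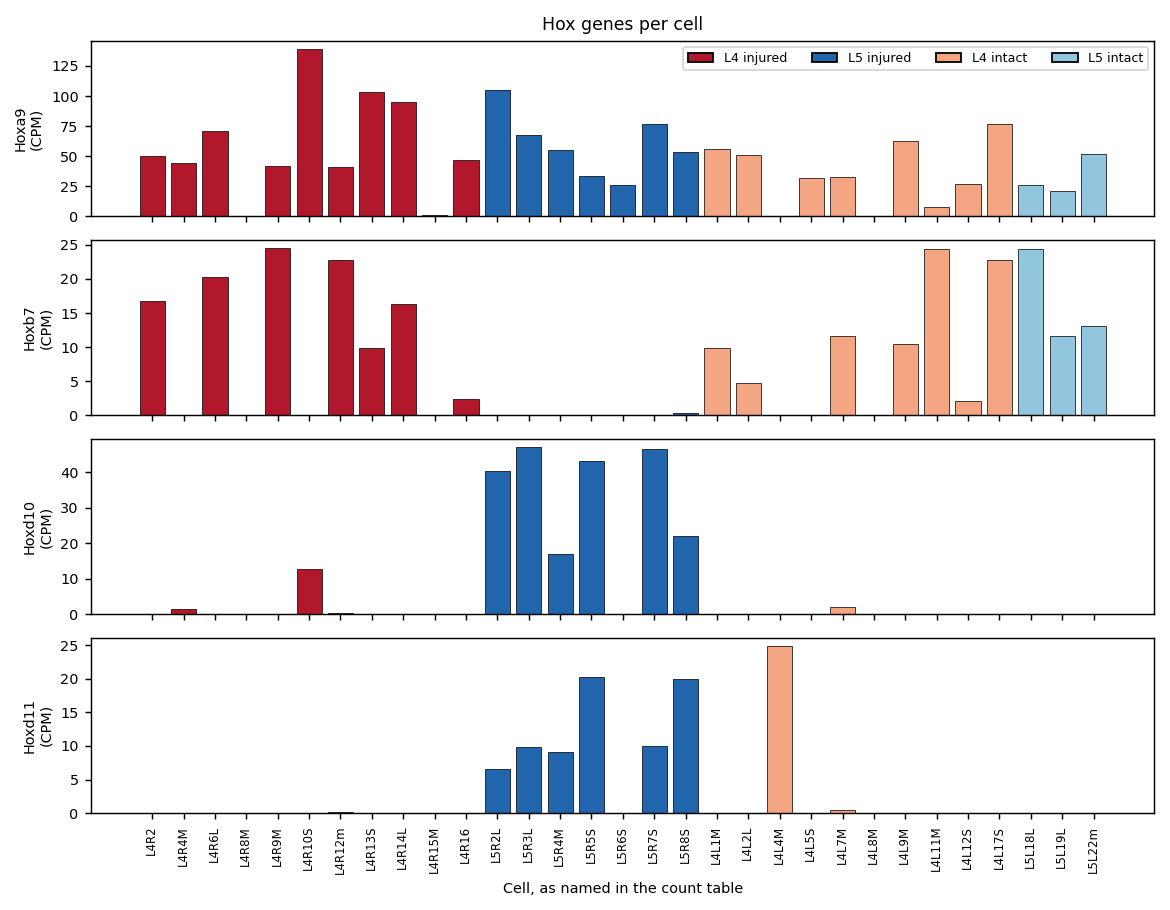
Level in CPM of Hoxa9, Hoxb7, Hoxd10 and Hoxd11 (panels) in each kept cell (bars, colour by group). Hoxd10 stands at 16.97 to 47.1 CPM in 6 of 7 L5 injured cells and at 0 in all 3 L5 intact cells, while Hoxb7 is present in L4 injured and in L5 intact cells.

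Among stress and cell death genes, 4 of the 10 that passed the filter were at least 4-fold higher in L4 and 0 in L5. Over all features that passed, the shares were 5.78% and 5.87%. Cdkn1a, Pmaip1 and Sesn2 passed through L4 alone. Cdkn1a (p21) was at 1065, 681, 586, 566, 309 and 251 CPM in the 6 Sprr1a-rich cells, 63.2 in L4R10S and at most 0.593 in the other 4, against 61.1 CPM in L5R2L and 0 to 13.6 in the other L5 cells. Its pooled log2 ratio was 6.76, and 7.67 without L5R2L or 6.11 without L4R9M. Pmaip1 (Noxa) was at 129, 66.6 and 56.1 CPM in L4R12m, L4R4M and L4R14L and had 1 read in L5. Intact cells reached 44.3 CPM of Pmaip1 (L4L2L) and 98.2 of Cdkn1a (L4L5S). With every cell thinned to 50000 counts, the log2 ratio of Pmaip1 fell from 10.1 to 1.57, below 4-fold. Sesn2, a stress sensor, had a log2 ratio of 2.45, which turned to -0.24 with every cell thinned to 50000 counts. Trp53, Bax, Ddit3, Atf4 and Hspa5 were not past 4-fold.

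Of the DNA methylation enzymes and readers, 2 of the 12 that passed were at least 4-fold higher in L4 and 0 in L5. They were Gadd45a, also on the injury list, and Tet3, an enzyme that oxidises 5-methylcytosine, with pooled levels of 38.2 and 9.21 CPM. Both were close to the 4-fold limit, and leaving out 1 cell took each below it (lowest log2 ratios 1.70 and 1.73). Tet3 passed the filter through L4 alone. Over all features that passed, 5.78% were at least 4-fold higher in L4 and 5.87% in L5. Dnmt1 and Dnmt3a were not past 4-fold, and Tet1, Tet2, Dnmt3b and Uhrf1 did not reach 10 CPM in either ganglion. The immediate-early genes Fos, Egr1 and Junb were not past 4-fold, whereas Arc was higher in L4 (log2 ratio 2.75, 1.94 without L4R9M and 9.26 without L5R4M) and Ier2 in L5 (-2.05, and -0.996 without L5R3L).

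Markers of other cell types moved with some of these results. The summed satellite glia level was 11.3, 489 and 3989 CPM in L4 (lowest, median and highest) and 58.9, 152 and 332 in L5. Its defining genes Fabp7, Kcnj10, Cdh19 and Sox10 were at or near 0 (Sox10 at most 8.51 CPM, Fabp7 2.79, Kcnj10 1.02 and Cdh19 at 0 in all 18 cells). The top value was Apoe in L4R8M, at 3972 CPM. Glul, which passed 4-fold, was at 452 to 788 CPM in L4R4M, L4R6L, L4R9M, L4R12m and L4R14L and at most 171 in L5. The summed Schwann cell level had medians of 1358 and 1314 CPM, mostly from Pmp22 in the cells other than L4R8M, L4R10S and L4R2. In L4R10S Mbp, a myelin gene, was at 202 CPM and Pmp22 at 177. L4R2 had 9.81 CPM of Pmp22 in a sum of 28.0. L4R4M held 105 CPM of Mbp beside 1267 of Pmp22. Prx, a protein of the Schwann cell sheath, was past 4-fold in L4 through L4R8M, and without that cell its log2 ratio was 1.08. Dcn was at 2320 CPM in L4R8M and at 282, 237 and 197 CPM in L4R4M, L4R6L and L4R15M, against 69.8 in L5R2L and at most 12.8 elsewhere in L5. The part of Glul and Dcn in the injury gene difference was not tested. Without L4R8M the 3 injury lists still had 4, 8 and 7 genes at least 4-fold higher in L4. Of the 73 genes past 4-fold that are named or listed here, 57 moved by over 1.5 times when some 1 cell was left out, and 16 then fell below 4-fold.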

How the data were processed

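RNA of single neurons was read after removal of the nucleus and amplification of cytoplasmic RNA by the SMART-seq2 protocol, with 150 bp read pairs, per the labels' protocols. The authors deposited raw fragment counts per gene, summed over exons by gene name without regard to strand with featureCounts 1.5.2 on GENCODE M16 (GRCm38) and the ERCC sequences, per the file headers. The exon length column they deposited, another unit, served only for levels per kilobase. The submitters' processing notes also name Trim Galore, STAR, Bismark and mm10. Of the table's count columns, 39 were used and 48 were not. For 9 injured cells the labels list more than 1 deposit under the same name, and the table has 1 column for each.

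Counts were scaled to CPM without the ERCC sequences and CT010467.1 in cells with at least 50000 such counts. Group levels were pooled counts with exact 95% Poisson intervals. A difference was called at a pooled ratio of at least 4 with at least 10 CPM in either group, and a share gap at 50 percentage points in cells at or above 20 CPM. A group at 0 was set to 3 counts over the group. No test between ganglia was made, because each group is 1 sample. The genes named are the members of the fixed lists and the 12 features with the largest ratio in each direction among those with a share gap, leaving out predicted genes, clones, pseudogenes and small RNAs. Some members of the lists enter the counts but are not reported here by name. The cells and lists were chosen with earlier results of these data known. The alternatives were other scalings (mean over cells, TMM from edgeR 4.0.16 in R 4.3.3, median of ratios, ERCC), level filters, folds, depth limits, thinning and the omission of single cells. The comparison was tested on simulated data. Python 3.11.15, numpy 2.4.6, pandas 2.3.3, scipy 1.17.1 and matplotlib 3.10.9 were used.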

Additional observations from a re-analysis of the deposited data

Results flagged for a closer look

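In the 7 L5 cells, 79 measures and genes were screened for 1 cell lying far from the other 6, and 17 passed Dixon's critical value for 7 cells. That value marks about 5% of groups only where the values are normally distributed. Here a gene at 0 in 6 cells passed whenever the remaining cell held any read. The 17 therefore cannot be set against that 5%. L4, with 11 cells, was not screened.

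L5R2L stood apart in 6 of them. It had 89.74% of its endogenous counts on CT010467.1 (others 25.29% to 52.8%) and 6526 genes detected (others 11125 to 14089). It also had 1.09 CPM of Gadd45a (others 12.3 to 42.3), 50.2 of Scn10a (others 620 to 2524), 0 of Glul (others 57.7 to 171) and 1.09 of Prkcd (others 108 to 1646).

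L5R6S lacked both posterior Hox genes, with 0 CPM of Hoxd10 (others 16.97 to 47.1) and 0 of Hoxd11 (others 6.55 to 20.3), and it was the cell with Nts, at 26.6 CPM (others at most 0.399). L5R4M held 64.7 CPM of Arc and 2.45 of Cck, both at 0 in the others. L5R5S had 7.86 CPM of Fst (others at most 1.198) and 0.117 of Akain1 (others 0). L5R8S had the only Hoxb7 and Pmaip1 reads, at 0.399 CPM each, the only Rasgrf2 reads, at 1.198 CPM, and 1.60 CPM of Sez6l (others at most 0.252). The Akain1 value of L5R5S and the values of L5R8S stand for 4 reads or fewer, and none of these single cells has a replicate.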

How the results depend on the processing

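The counts of features depended on the thresholds, and the injury lists did not give a 4-fold call toward L5 in any setting tried. From 537 features higher in L4, a 2-fold limit gave 1217, an 8-fold limit 334, pooled minimums of 1 and 50 CPM 1509 and 188, no level filter 2165, and cells named M or m alone (5 against 1) 832. From 546 higher in L5 the same settings gave 1496, 276, 1307, 198, 1805 and 969, CT010467.1 left in the total gave 317 and ERCC scaling 299. With the share gap, the 79 features of L4 became 199 in cells with at least 500000 counts, 297 with M or m alone, 160 without S cells, 144 in cells with at least 2000 genes (chosen after seeing the data) and 46 at 100 CPM. The 74 of L5 became 163 at 2-fold, 34 at 8-fold, 47 with CT010467.1, 115 after thinning, 619 with M or m alone, 141 without S cells and 28 at 100 CPM. The intact counts, 395 and 336, became 1134 and 1083 at 2-fold, and the first became 254 with equal weight for each cell.

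Leaving out 1 cell gave 475 to 686 and 506 to 760 features past 4-fold, and 77 to 144 (144 without L4R8M) and 74 to 170 (170 without L5R2L) with the share gap. Leaving out 1 cell took Pvalb from -0.72 (without L4R2) to 4.32. In the cells named M or m, log2 ratios of Gfra2 (4.39), Lpar3 (0.39), Tac1 (0.68) and Fam19a4 (2.68) turned toward L4. Lpar3 there compares no reads in L4 with 1 read in L5 against the floor. Tac1 and Trpv1 turned with equal weights (0.12 and 1.58), ERCC scaling (0.66 and 2.08) and thinning (0.32 and 1.74), and Sesn2 with thinning (-0.24). The causes were not tested. Of 73 genes past 4-fold, 61 stayed past it in the same direction with equal weights, 71 with TMM, 66 with ERCC scaling and 51 after thinning. No paired analysis was possible because cell numbers mark no shared animal or batch in the labels.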
